A study of Homo sapiens with 54 samples.

Results

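The multidrug ABC efflux transporters were taken as 8 named genes, ABCB1, ABCC1, ABCC2, ABCC3, ABCC4, ABCC5, ABCC10 and ABCG2, of the 27978 genes in the count table. They were picked by name for their known role in drug resistance, by a rule that uses no measured value. Earlier results of these data were known when they were picked. The study sequenced RNA of MDA-MB-231, a line established from a human breast cancer, with 18 groups of 3 libraries, 54 in all. The cells were untreated (UT, with no vehicle named) or had received compound kushen injection (CKI), a plant extract rich in alkaloids, at 2 mg/ml, or mixtures at the equivalent dose. N-OmtOspc was CKI without oxymatrine and oxysophocarpine, N-MacOmtOspc was CKI without these and macrozamin, OmtOspc held oxymatrine and oxysophocarpine alone, and MacOmtOspc held macrozamin with them. These 6 groups were sampled after 24 h and again after 48 h in batch 1. Batch 2, at 48 h, held UT, CKI and CKI without macrozamin (N-Mac), N-methylcytisine (N-Nme), oxymatrine (N-Omt) or trifolirhizin (N-Tri). All groups share 1 cell line for which no gene alteration is named, and RNA was the quantity measured, not transport.

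ABC transporters use ATP to move substances across membranes, and those of this group carry drugs and their conjugates out of cells. ABCB1 (P-glycoprotein) exports many hydrophobic cytotoxic drugs, and ABCG2 (breast cancer resistance protein) exports topoisomerase inhibitors, porphyrins and urate. The ABCC members are the multidrug resistance-associated proteins. ABCC1 and ABCC2 carry glutathione conjugates, ABCC3 carries glucuronides and bile acids, ABCC4 and ABCC5 carry cyclic nucleotides and nucleotide analogues, and ABCC10 carries taxanes. Tumour cells that make more of these proteins can resist chemotherapy, and several of the genes respond to xenobiotic and oxidative stress through the aryl hydrocarbon receptor and NRF2.

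Library totals lay between 17673537 and 26138924 counts. Of the line's defining markers, VIM, CD44, KRT8, KRT18 and S100A4 were at 381 CPM or above in untreated libraries, and EGFR lay between 66.8 and 163. Over all 54 libraries the lowest CPM was 488 for VIM, 328 for CD44, 178 for KRT8, 77.1 for KRT18 and 147 for S100A4. EGFR lay between 66.8 and 479 CPM over all libraries. ESR1 and PGR reached at most 8 counts in any library. ERBB2, usually called negative in this line, overlapped EGFR, between 88.8 and 113 CPM in untreated libraries. EPCAM and CDH1, listed as absent too, lay between 15.6 and 21.9 and between 0.873 and 7.19 CPM there. At 24 h the 3 libraries whose titles carry no number after the treatment code, CKI replicate 1, N-MacOmtOspc replicate 2 and OmtOspc replicate 2, leaned towards batch 2, with slopes of 0.669, 0.613 and 0.576 along the difference between untreated cells of the batches at 48 h, where no other library of batch 1 at 24 h exceeded 0.110. HBB, the beta chain of haemoglobin and a marker of red blood cells, had 566 to 1969 counts in 14 of the 18 libraries at 24 h. It had no count in the other 4, which are those 3 and MacOmtOspc replicate 3, and at most 2 in the 36 libraries at 48 h. Of the other markers of other cells, PTPRC, CD3E and ALB reached at most 10 counts, PECAM1 at most 122, and CD68 had 2189 to 8627. Summed over all 6 markers, untreated and CKI libraries held 2909 to 3707 and 3818 to 5191 counts at 24 h. At 48 h they held 2717 to 2840 and 5397 to 6141 in batch 1, and 3495 to 3867 and 5755 to 6755 in batch 2. Nearly all of it was CD68 at 48 h, and CD68 and HBB at 24 h. Without HBB and CD68 the sums were 32 to 43 and 56 to 94 at 24 h. At 48 h these were 31 to 38 and 90 to 128 in batch 1, and 24 to 33 and 54 to 88 in batch 2. The part of these markers in the results below was not tested. Results at 24 h are therefore given also for the libraries with HBB reads alone, a choice made after seeing the data, and no other test was made of their part.

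Promoter sequences are shown for ABCC2, ABCC5 and ABCG2, the members called higher in most comparisons and lower in none, and for ABCC4, which was called lower and never higher. RefSeq's promoter table (GRCh38.p14) held 12 promoters of 6 of the 8 members, and none was found there for ABCC1 and ABCC3. Each sequence below runs 5′ to 3′ towards the start of transcription, within 250 bases of it, and stops before any exon of the gene in GENCODE v29. Where a gene had several promoters, the one nearest to a protein-coding start in GENCODE v29 was taken. Capitals mark matches on either strand to GCGTG, the core of the site bound by the aryl hydrocarbon receptor, and to TGACNNNGC, the core of the antioxidant response element bound by NRF2.
ABCC2, chr10:99782390-99782639, plus strand: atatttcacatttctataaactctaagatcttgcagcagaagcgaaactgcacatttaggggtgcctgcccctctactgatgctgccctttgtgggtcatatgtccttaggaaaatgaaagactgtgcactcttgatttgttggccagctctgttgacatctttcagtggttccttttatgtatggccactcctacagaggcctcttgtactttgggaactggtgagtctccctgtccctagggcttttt
ABCC5, chr3:184018016-184018134, minus strand: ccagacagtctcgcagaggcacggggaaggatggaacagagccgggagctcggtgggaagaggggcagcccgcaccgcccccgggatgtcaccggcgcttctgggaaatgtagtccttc
ABCG2, chr4:88158913-88159159, minus strand: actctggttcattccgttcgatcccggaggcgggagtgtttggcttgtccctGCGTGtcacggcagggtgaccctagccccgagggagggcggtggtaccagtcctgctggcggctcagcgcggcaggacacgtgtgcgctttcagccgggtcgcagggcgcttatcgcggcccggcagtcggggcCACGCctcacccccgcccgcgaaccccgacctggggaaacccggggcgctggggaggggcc
ABCC4, chr13:95301452-95301701, minus strand: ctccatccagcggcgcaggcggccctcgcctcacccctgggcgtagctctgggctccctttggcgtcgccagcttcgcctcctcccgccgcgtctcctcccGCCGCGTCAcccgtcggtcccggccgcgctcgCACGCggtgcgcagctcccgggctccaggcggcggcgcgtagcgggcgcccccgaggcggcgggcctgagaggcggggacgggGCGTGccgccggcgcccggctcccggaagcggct
The ABCG2 sequence, 1 of 5 in the table, held 2 matches to GCGTG and none to TGACNNNGC, and of the other 4, whose windows partly overlap, 2 held GCGTG and 2 held neither. The ABCC4 sequence held 2 matches to GCGTG and 1 to TGACNNNGC, and the sequences of ABCC2 and ABCC5 held neither. Of all 35116 promoters in the table, 32.2% held GCGTG and 10.9% held TGACNNNGC within 250 bases of the start. The matches are descriptions of letters, not of bound sites, and they stood before a gene that rose and a gene that fell.

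In untreated cells the transporters spanned a wide range of RNA levels. Levels were compared per length, as CPM, the counts scaled to a common library total, per kilobase (kb) of exon in the basic GENCODE v29 annotation. ABCC1 was highest at 24 h, at 12.9 ± 0.984 CPM per kb (SD, n = 3), before ABCC3 at 9.74 ± 1.11 and ABCC10 at 7.98 ± 0.408. The ranges of these 3 genes did not overlap at 24 h. ABCC4 followed at 3.41 ± 0.0377 CPM per kb, ABCC5 at 2.48 ± 0.390 and ABCG2 at 1.80 ± 0.0781. The order of ABCC4 and ABCC5 rests on the exon lengths taken, 6267 and 10527 bases. In CPM ABCC5 was the higher, at 26.1 ± 4.10 against 21.3 ± 0.236. ABCC2, the conjugate exporter of the liver's bile canaliculi, was far lower, at 0.144 ± 0.0284 CPM per kb, which rested on 16 to 22 counts a library. In bulk RNA, fewer cells that express a gene and less RNA per cell cannot be told apart.

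**Figure D1:**
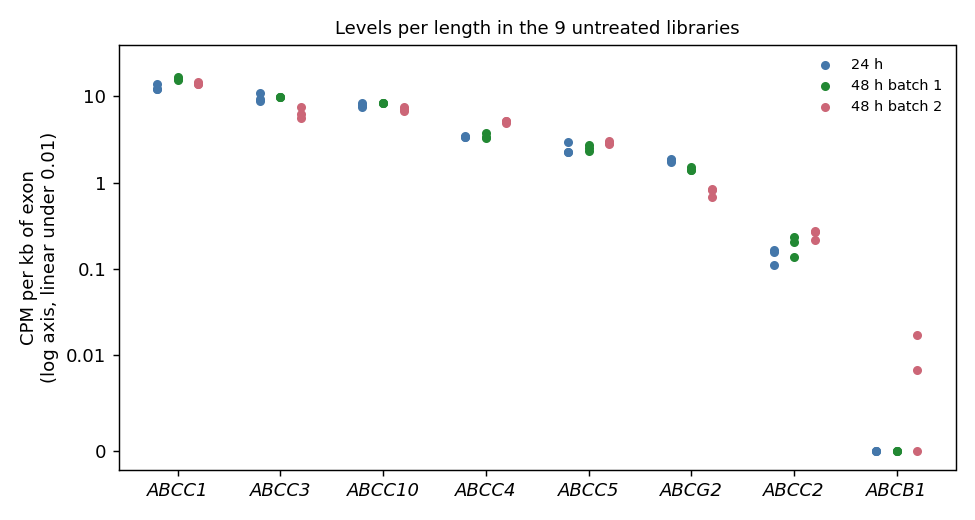
Level per length of each transporter in the 9 untreated libraries, as CPM per kb of exon on an axis that is logarithmic above 0.01 and linear below it. Colours mark time and batch, and each point is 1 library. ABCC1 to ABCG2 lie at 0.676 CPM per kb or above in every library, ABCC2 lies between 0.111 and 0.274, and ABCB1 is at or near 0.

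ABCB1 was too low to judge in any comparison. It had 0 to 8 counts in each of the 54 libraries and was removed by the filter on low counts from every fit. In untreated cells it had no count in all 6 libraries of batch 1 and 0, 2 and 1 counts in the libraries of batch 2. A count of 0 allows up to 3 counts in a library, so neither presence at a lower level nor a change with treatment was detectable at this depth. Its highest counts were 5, 1 and 8 with N-Mac and 3, 7 and 2 with N-Tri. Every library with 3 or more counts was a treated library of batch 2.

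Between 24 and 48 h of batch 1, none of the other 7 members was called different in untreated cells by edgeR's quasi-likelihood test at an adjusted p under 0.05 (1.57% of all genes were). At an unadjusted p under 0.05 there was 1, ABCC1, whose log2 difference was 0.32 ± 0.12 (SE), and DESeq2 called none. Between the batches at 48 h, 6 of the 7 were called, against 60.5% of all genes. ABCG2 was 1.88-fold lower in batch 2, with 7.27, 6.75 and 6.75 CPM in batch 1 and 3.25, 4.03 and 3.95 in batch 2. ABCC3 was also lower in batch 2, at a log2 difference of -0.63 ± 0.08, and ABCC4 was higher by 0.52 ± 0.08. Each treated group was for that reason compared only with untreated cells of its own time and batch, and the 5 treated groups of a set share those 3 untreated libraries.

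**Figure D2:**
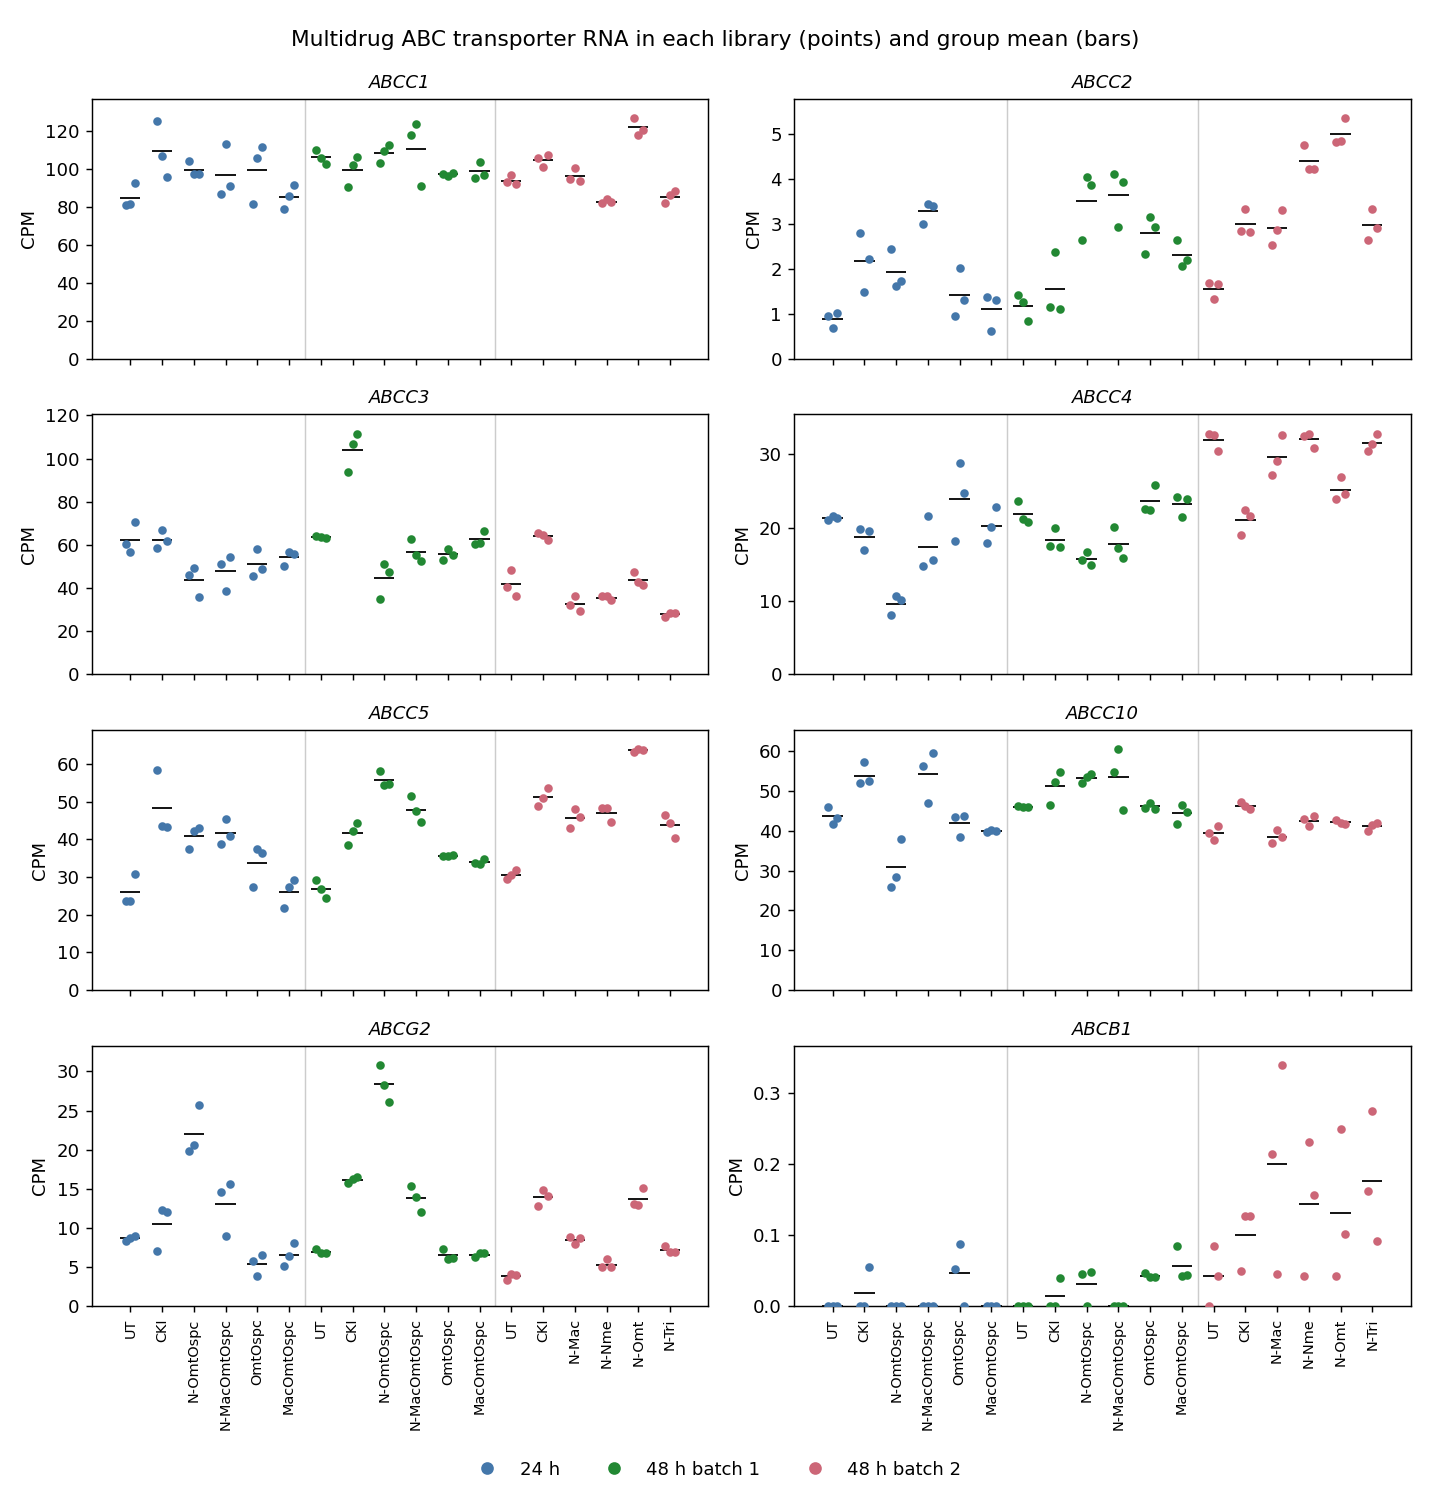
RNA level of the 8 transporters in CPM (vertical axis, from 0) in each of the 54 libraries, as points, with a bar at the mean of each group. Groups run along the horizontal axis, coloured by time and batch. ABCG2 is highest with N-OmtOspc, ABCC3 stands out with CKI at 48 h, and ABCB1 stays below 0.4 CPM.

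Against untreated cells, the number of members called depended on the mixture and the time, and it is set here beside the share of all genes called in the same comparison. At 24 h CKI had 2 of 7 members called (30.0% of all genes), N-OmtOspc 6 (62.1%) and N-MacOmtOspc 2 (45.0%). OmtOspc and MacOmtOspc had 0 called at 24 h (16.7% and 10.5% of all genes). At an unadjusted p under 0.05 OmtOspc had 2, ABCC5 and ABCG2, and MacOmtOspc had 0, and DESeq2 called ABCG2 alone with OmtOspc and none with MacOmtOspc. At 48 h in batch 1, 4 members were called with CKI (54.0%), 6 with N-OmtOspc (76.6%) and 5 with N-MacOmtOspc (71.1%). OmtOspc and MacOmtOspc had 2 each (57.8% and 51.2%). In batch 2 the numbers were 7 with CKI (66.4%), 4 with N-Mac (72.4%), 5 with N-Nme (71.3%), 5 with N-Omt (78.2%) and 5 with N-Tri (72.2%). Of the 105 tests of members, 55 passed. A share of 7 genes is coarse, and nothing particular to the transporters is read from these counts.

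With the libraries that had HBB reads alone, all 10 calls at 24 h were kept and 6 were gained. The gains were ABCG2 with CKI, N-MacOmtOspc, OmtOspc and MacOmtOspc, and ABCC4 and ABCC10 with N-MacOmtOspc. Their values stand beside the members below. The share of all genes called in that setting is not given here, so nothing particular to the transporters is read from the gains.

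**Figure D3:**
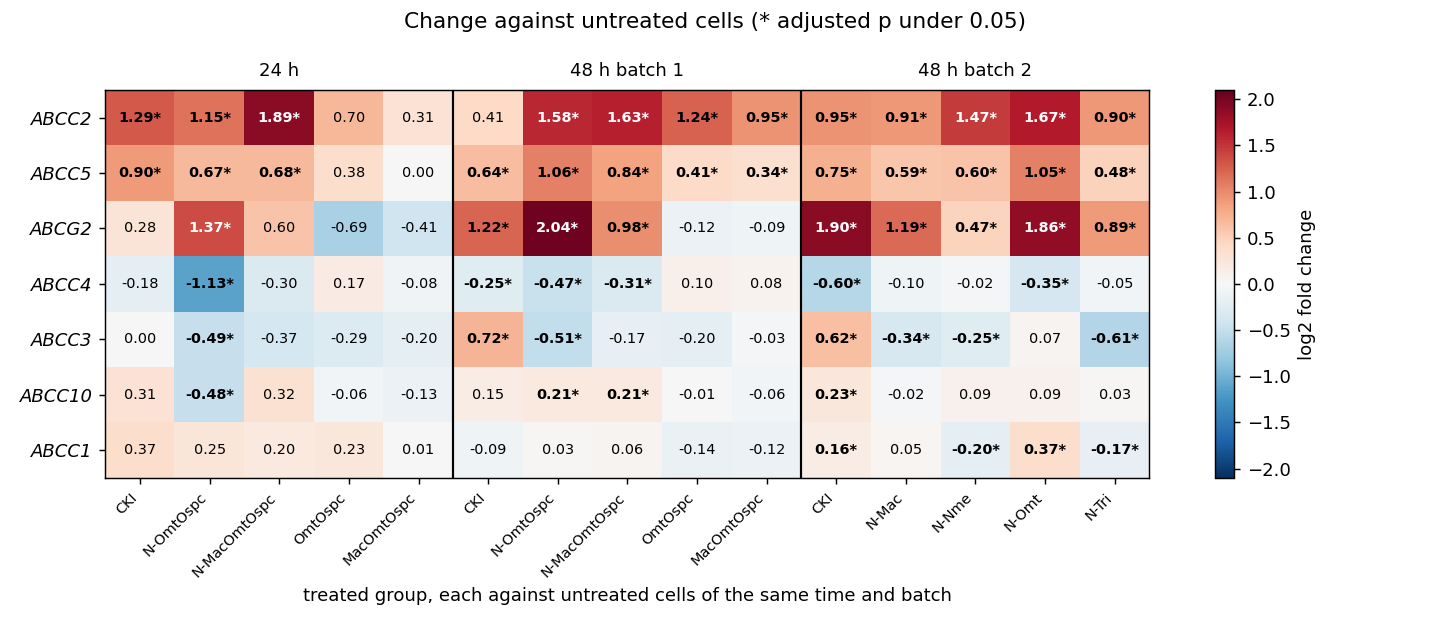
Log2 fold change of 7 transporters (rows) in the 15 treated groups (columns) against untreated cells of the same time and batch, with red for higher and blue for lower. An asterisk and bold type mark an adjusted p under 0.05. ABCC2 and ABCC5 are above 0 in all 15 groups, while ABCC4 is below 0 wherever it is called and ABCC3 is called in both directions.

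ABCC5, the exporter of cyclic nucleotides and nucleotide analogues, was called higher in 13 of 15 comparisons and lower in none. At 24 h it had 23.7, 23.7 and 30.8 CPM in the untreated libraries and 58.5, 43.6 and 43.3 with CKI. The groups did not overlap, and the log2 fold change was 0.90 ± 0.16 (SE, n = 3 against 3, adjusted p = 0.000629). With N-OmtOspc it rose by 0.67 ± 0.16 at 24 h, a call lost when library sizes alone set the scale (0.37, with the median gene at -0.31), and by 1.06 ± 0.07 at 48 h, where it had 58.3, 54.4 and 54.9 CPM against 29.1, 26.8 and 24.3 in untreated cells. In batch 2 it was highest with N-Omt, at 63.3, 64.0 and 63.8 CPM, all above the untreated 29.6, 30.6 and 31.8 (log2 fold change 1.05 ± 0.06, adjusted p = 1.43e-16). The remaining mixtures of batch 2 gave 0.48 to 0.60, each of them called. Its smallest responses were to the mixtures of 2 and 3 compounds. MacOmtOspc gave 0.00 ± 0.16 at 24 h, which did not pass, and 0.34 ± 0.08 at 48 h, which did (adjusted p = 0.000778). Counts of its antisense gene ABCC5-AS1 were 4 or fewer in every library.

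ABCC2, which carries glutathione and glucuronide conjugates, was called higher in 12 of 15 comparisons and lower in none, from a low level. Untreated cells at 24 h held 0.954, 0.686 and 1.01 CPM and N-MacOmtOspc cells 2.99, 3.44 and 3.40, the largest log2 fold change of the gene at 1.89 ± 0.34 (adjusted p = 0.000278). With CKI at 24 h the values were 2.79, 1.49 and 2.22 CPM, all above the untreated libraries, at 1.29 ± 0.34 (adjusted p = 0.00942). That call was lost without CKI replicate 1 (1.05, adjusted p = 0.0511) or untreated replicate 2 (1.13, adjusted p = 0.0519). N-OmtOspc at 24 h gave 1.15 ± 0.35, which did not pass with library sizes alone (0.84, adjusted p = 0.0532). At 48 h in batch 1 the CKI libraries held 1.14, 2.37 and 1.11 CPM against 1.42, 1.26 and 0.838 untreated, so that the groups overlapped, and the difference of 0.41 ± 0.30 did not pass (adjusted p = 0.252). All 4 mixtures of that set passed, from 0.95 with MacOmtOspc to 1.63 with N-MacOmtOspc. In batch 2 all 5 treated groups passed. N-Omt reached 4.81, 4.83 and 5.35 CPM and N-Nme 4.76, 4.21 and 4.21, against 1.69, 1.32 and 1.66 untreated, which was 3.18-fold and 2.77-fold. Across the 18 groups its counts ran from 15 to 116 a library, so its fold changes are less precise than those of the other 6.

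ABCG2, the exporter named for breast cancer resistance, showed the largest single change of the group and was called higher in 9 of 15 comparisons and lower in none. With N-OmtOspc it held 19.8, 20.6 and 25.7 CPM at 24 h against 8.25, 8.70 and 8.99 in untreated cells, a rise of 2.59-fold (log2 1.37 ± 0.25, adjusted p = 0.000144). At 48 h it reached 30.8, 28.2 and 26.1 CPM, 4.10-fold above the untreated cells (log2 2.04 ± 0.10, adjusted p = 3.62e-14). This was its highest level in any group. CKI itself raised ABCG2 at 48 h to 15.7, 16.2 and 16.4 CPM in batch 1 and 12.8, 14.9 and 14.1 in batch 2, by 1.22 ± 0.10 and 1.90 ± 0.11 on the log2 scale. At 24 h the CKI libraries held 7.06, 12.3 and 12.1 CPM. Replicate 1, without HBB reads, lay below all 3 untreated libraries and the other replicates lay above them. The log2 fold change was 0.28 ± 0.25 with all libraries (adjusted p = 0.427) and 0.49 with HBB-positive libraries alone (adjusted p = 0.0165). It was called in 2 of 15 alternatives, both of which left out CKI replicate 1 together with other libraries.

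The mixtures of 2 and 3 compounds did not raise ABCG2. At 24 h OmtOspc held 5.76, 3.86 and 6.48 CPM and MacOmtOspc 5.06, 6.36 and 8.07, each of them below the lowest untreated library at 8.25. The differences of -0.69 ± 0.25 and -0.41 ± 0.25 did not pass (adjusted p = 0.0745 and 0.351). With HBB-positive libraries alone they were -0.50 and -0.60 and both passed (adjusted p = 0.0285 and 0.0152). For MacOmtOspc this was the 1 call in 15 alternatives. Without the 3 libraries whose titles carry no number, the differences were -0.50 and -0.41 and neither passed (adjusted p = 0.0525 and 0.0732). At 48 h they were -0.12 ± 0.11 and -0.09 ± 0.11, with 95% intervals of -0.35 to 0.12 and -0.33 to 0.15. N-MacOmtOspc at 24 h held 14.6, 8.91 and 15.6 CPM, at 0.60 ± 0.25 with all libraries (adjusted p = 0.0591) and 0.80 with HBB-positive libraries alone, replicate 2 being left out (adjusted p = 0.000273). At 48 h N-MacOmtOspc raised it by 0.98 ± 0.11 (adjusted p = 2.73e-08).

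In batch 2 the order of ABCG2 was CKI at 13.9 ± 1.06 CPM (SD, n = 3), N-Omt at 13.7 ± 1.26, N-Mac at 8.43 ± 0.496, N-Tri at 7.12 ± 0.466, N-Nme at 5.27 ± 0.602 and untreated cells at 3.75 ± 0.428. CKI and N-Omt overlapped, and every other neighbouring pair in this order was separate. Against untreated cells all 5 were called, from 0.47 ± 0.13 for N-Nme to 1.90 ± 0.11 for CKI.

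ABCC4, which exports cyclic nucleotides and prostaglandins, was the only member with calls in the lower direction alone. It was called lower in 6 of 15 comparisons and higher in none. With N-OmtOspc at 24 h it held 8.05, 10.7 and 10.1 CPM against 21.1, 21.6 and 21.4 in untreated cells, 2.18-fold lower (log2 -1.13 ± 0.18, adjusted p = 4.43e-05). At 48 h the same mixture gave 15.7, 16.7 and 14.9 CPM against 23.6, 21.2 and 20.8, at -0.47 ± 0.10. CKI lowered it at 48 h in batch 2 (-0.60 ± 0.07), where the libraries held 19.0, 22.5 and 21.7 CPM against 32.8, 32.7 and 30.5. The difference in batch 1 was -0.25 ± 0.09 (adjusted p = 0.0272), a call that held in 8 of 13 alternatives. It was lost without untreated replicate 1, CKI replicate 1 or CKI replicate 3, with all 54 libraries in 1 fit, and with library sizes alone, where the difference was smallest at -0.17 (adjusted p = 0.172). At 24 h CKI gave -0.18 ± 0.17, which did not pass (adjusted p = 0.459). N-MacOmtOspc at 48 h gave -0.31 ± 0.10, a call lost without untreated replicate 1 (-0.24, adjusted p = 0.0509). N-Omt lowered it (-0.35 ± 0.07), while N-Mac, N-Nme and N-Tri gave -0.10, -0.02 and -0.05 and did not pass. At 24 h N-MacOmtOspc gave -0.30 ± 0.17 with all libraries and -0.49 with HBB-positive libraries alone, which passed (adjusted p = 0.0139).

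ABCC3, the exporter of glucuronides and bile acids, was called in both directions. CKI raised it at 48 h in both batches, and no mixture was called higher with all libraries. In batch 1 it held 93.6, 107 and 112 CPM with CKI against 64.1, 63.4 and 63.0 untreated, at 0.72 ± 0.10 (adjusted p = 3.56e-06). In batch 2 it held 65.4, 64.5 and 62.1 against 40.3, 48.4 and 36.3, at 0.62 ± 0.08 (adjusted p = 1.64e-08). At 24 h the CKI libraries held 58.6, 66.8 and 61.9 CPM, within the untreated range of 56.7 to 70.5, and the log2 fold change was 0.00 ± 0.15 with a 95% interval of -0.31 to 0.32. N-OmtOspc lowered ABCC3 at 24 h (-0.49 ± 0.15) and at 48 h (-0.51 ± 0.10). The call at 24 h was lost without N-OmtOspc replicate 3 (-0.36, adjusted p = 0.0534). In batch 2 it was lower with N-Tri, at 26.8, 28.5 and 28.2 CPM (-0.61 ± 0.08), with N-Mac (-0.34 ± 0.08) and with N-Nme (-0.25 ± 0.08). Without untreated replicate 2 the N-Mac difference shrank to -0.22 and stayed called, and the N-Nme difference shrank to -0.13 and was lost (adjusted p = 0.136). The N-Nme call was also lost with library sizes alone (-0.17) and with all 54 libraries in 1 fit (-0.23).

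ABCC10 and ABCC1, carriers of taxanes and of glutathione conjugates, moved least. ABCC10 was called in 4 of 15 comparisons. Its largest change was a fall with N-OmtOspc at 24 h, to 26.0, 28.4 and 38.0 CPM from 46.1, 41.7 and 43.1 (-0.48 ± 0.13, adjusted p = 0.00422), while at 48 h the same mixture gave 0.21 ± 0.08 in the other direction. It also rose by 0.21 ± 0.08 with N-MacOmtOspc at 48 h and 0.23 ± 0.05 with CKI in batch 2. Both calls of batch 1 at 48 h were lost without some single libraries, among them each of untreated replicates 2 and 3. Among HBB-positive libraries N-MacOmtOspc gave 0.41 at 24 h (adjusted p = 0.0165), and 0.32 with all libraries did not pass.

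ABCC1 was called in 4 comparisons, all in batch 2. It was higher with N-Omt, at 127, 118 and 121 CPM against 93.2, 96.7 and 91.9 untreated (0.37 ± 0.05, adjusted p = 2.05e-08), and by 0.16 ± 0.05 with CKI. It was lower with N-Nme (-0.20 ± 0.05) and N-Tri (-0.17 ± 0.05). The CKI, N-Nme and N-Tri calls were lost with all 54 libraries in 1 fit, and N-Tri also with library sizes alone (-0.07, adjusted p = 0.185). No difference of ABCC1 in batch 1 passed, and the largest there was 0.37 ± 0.14 with CKI at 24 h (adjusted p = 0.0522), which DESeq2 called.

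The next question was how removing components changed the effect of the whole injection, so each mixture was compared with CKI of its own time and batch. The 4 mixtures of a set share the same 3 CKI libraries. At 24 h 4 of 7 members differed from CKI with N-OmtOspc (58.7% of all genes), 0 with N-MacOmtOspc (35.7%), 1 with OmtOspc (8.49%) and 2 with MacOmtOspc (11.6%). For N-MacOmtOspc, ABCC3 had an unadjusted p under 0.05 and DESeq2 called no member. At 48 h in batch 1 the numbers were 4 with N-OmtOspc (73.1%), 4 with N-MacOmtOspc (67.2%), 5 with OmtOspc (51.8%) and 5 with MacOmtOspc (47.6%). In batch 2 they were 6 with N-Mac (69.4%), 7 with N-Nme (71.5%), 6 with N-Omt (76.3%) and 6 with N-Tri (71.4%).

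ABCC3 was lower than with CKI in all 8 comparisons at 48 h. In batch 1 the log2 differences ran from -1.23 ± 0.10 with N-OmtOspc to -0.75 ± 0.10 with MacOmtOspc. In batch 2, where 1 named component had been removed each time, they were -1.24 ± 0.08 for N-Tri, -0.97 ± 0.08 for N-Mac, -0.87 ± 0.08 for N-Nme and -0.56 ± 0.08 for N-Omt. The largest of the 8 adjusted p-values was 2.41e-06. Of the 4 mixtures at 24 h, N-OmtOspc passed, at -0.49 ± 0.15 (adjusted p = 0.00998), but not without its replicate 3 (-0.35, adjusted p = 0.0582).

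ABCG2 separated the mixtures most clearly. Without N-methylcytisine it was 2.70-fold lower than with CKI (log2 -1.43 ± 0.11, adjusted p = 1.6e-13), without trifolirhizin at a log2 difference of -1.01 ± 0.10 and without macrozamin at -0.71 ± 0.10. Removing oxymatrine gave -0.04 ± 0.09, with a 95% interval of -0.23 to 0.15. In batch 1 N-OmtOspc was above CKI by 1.10 ± 0.25 at 24 h and 0.81 ± 0.09 at 48 h. OmtOspc and MacOmtOspc were below CKI at 48 h, at -1.34 ± 0.10 and -1.31 ± 0.10. At 24 h OmtOspc stood at -0.96 ± 0.25 (adjusted p = 0.0256), a call lost without CKI replicate 2 or 3 or OmtOspc replicate 2. MacOmtOspc gave -0.69 ± 0.25, which passed with HBB-positive libraries alone (-1.09, adjusted p = 0.000923). N-MacOmtOspc differed from CKI at 48 h by -0.24 ± 0.10 (adjusted p = 0.0345), a call that held in 4 of 13 alternatives, over all of which the difference ran from -0.37 to -0.14. It was lost with DESeq2 (-0.21, adjusted p = 0.0704), when any 1 of the 3 CKI libraries or N-MacOmtOspc replicate 3 was left out, and in 4 other settings of scaling, filter or fit.

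ABCC4 was higher than with CKI in all 4 mixtures of batch 2, from 0.25 ± 0.07 for N-Omt to 0.58 ± 0.07 for N-Nme, and also with OmtOspc (0.36 ± 0.09) and MacOmtOspc (0.33 ± 0.09) at 48 h of batch 1. With N-OmtOspc at 24 h it was lower than with CKI (-0.94 ± 0.18), and ABCC10 was lower too (-0.78 ± 0.13). MacOmtOspc at 24 h lay below CKI for ABCC5 (-0.90 ± 0.16) and ABCC10 (-0.43 ± 0.13), the second of which was lost without any 1 library of either group. ABCC2 exceeded its level with CKI at 48 h in N-OmtOspc (1.16 ± 0.25), N-MacOmtOspc (1.22 ± 0.25) and OmtOspc (0.83 ± 0.26), the last lost without CKI replicate 1 or 3. In batch 2 it did so in N-Omt (0.72 ± 0.14) and N-Nme (0.53 ± 0.14), and in N-Mac and N-Tri the differences were -0.04 and -0.04, with 95% intervals of -0.35 to 0.28 and -0.36 to 0.27. ABCC5 at 48 h in batch 1 was above CKI in N-OmtOspc (0.42 ± 0.07) and N-MacOmtOspc (0.20 ± 0.07) and below it in OmtOspc (-0.24 ± 0.07) and MacOmtOspc (-0.30 ± 0.07), of which N-MacOmtOspc was lost without CKI replicate 1 or its own replicate 1 and in 4 other settings, and OmtOspc without CKI replicate 3. In batch 2 it was higher in N-Omt by 0.31 ± 0.06 and lower in N-Tri (-0.26 ± 0.06), N-Mac (-0.16 ± 0.06) and N-Nme (-0.14 ± 0.06). The calls of N-Mac and N-Nme were lost without CKI replicate 3, among other single libraries.

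**Figure D4:**
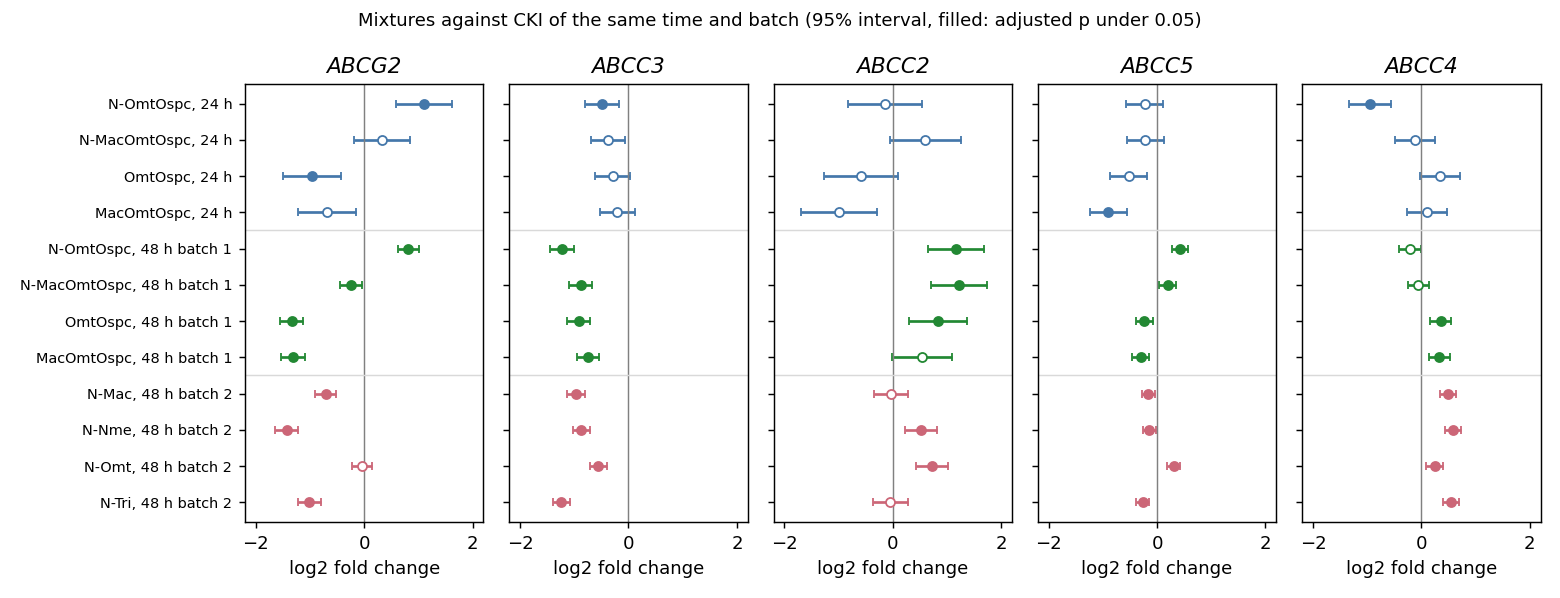
Log2 fold change of ABCG2, ABCC3, ABCC2, ABCC5 and ABCC4 in 12 mixtures (rows) against CKI of the same time and batch, with 95% intervals. Filled points have an adjusted p under 0.05, and colours mark time and batch. ABCC3 lies left of 0 in every row, and ABCG2 lies right of 0 with N-OmtOspc and near 0 with N-Omt.

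Macrozamin, an azoxy glycoside, is the 1 component by which 2 pairs of mixtures in batch 1 differed, as do CKI and N-Mac in batch 2. With and without it beside oxymatrine and oxysophocarpine (MacOmtOspc against OmtOspc), 0 members were called at 24 h (0% of all genes) and 0 at 48 h (1.98%). At 24 h ABCC5 alone had an unadjusted p under 0.05, as had 566 of all genes, and DESeq2 called 0 genes. At 48 h no member had an unadjusted p under 0.05 and DESeq2 called none. The 95% intervals at 48 h were narrow, -0.21 to 0.26 for ABCG2 and -0.22 to 0.09 for ABCC5. In CKI without oxymatrine and oxysophocarpine, the mixture that kept macrozamin (N-OmtOspc) was compared with the one that lost it (N-MacOmtOspc), and 3 members were called at 24 h (47.6%) and 3 at 48 h (51.0%). ABCG2 was higher where macrozamin was present, by 0.78 ± 0.24 after 24 h and 1.05 ± 0.09 after 48 h, with adjusted p-values of 0.0145 and 9.69e-09. The call at 24 h was lost without N-MacOmtOspc replicate 2, one of the libraries with no HBB reads, at 0.56 (adjusted p = 0.0639), and without N-OmtOspc replicate 3, at 0.66 (adjusted p = 0.0554). With HBB-positive libraries alone it was 0.56 and passed (adjusted p = 0.00381). ABCC4 and ABCC10 were lower where it was present at 24 h, at -0.83 ± 0.18 and -0.80 ± 0.13. At 48 h ABCC3 was lower (-0.35 ± 0.10) and ABCC5 higher by 0.23 ± 0.07, both lost without N-OmtOspc replicate 1 (adjusted p = 0.0715 and 0.0601). For ABCC3 the pair in batch 2 went the other way, with N-Mac below CKI (-0.97 ± 0.08), and the difference between the pairs was not tested.

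Whether an effect differed between 24 and 48 h was tested directly in batch 1. For N-OmtOspc, 3 of 7 members differed (34.2% of all genes), and for CKI (0.391%), N-MacOmtOspc (7.35%), OmtOspc (8.06%) and MacOmtOspc (2.59%) 0 did. Among those with 0, an unadjusted p under 0.05 was reached by ABCC1, ABCC3 and ABCG2 for CKI and by ABCC1 and ABCG2 for OmtOspc, and DESeq2 called ABCC3 alone, for CKI. The effect of N-OmtOspc was higher at 48 than at 24 h by 0.71 ± 0.16 for ABCC10, 0.69 ± 0.20 for ABCC4 and 0.69 ± 0.27 for ABCG2. The ABCG2 difference (adjusted p = 0.0477) was not called with most single libraries left out, and that of ABCC4 was not called without N-OmtOspc replicate 1 of 24 h (0.55). For ABCC4 the fall was the smaller at 48 h, for ABCC10 a fall at 24 h stood against a small rise, and for ABCG2 the rise was the larger at 48 h. For ABCC3 the effect of CKI differed by 0.72 ± 0.19 (adjusted p = 0.084). The effect of CKI on ABCG2 differed by 0.96 ± 0.27 with all libraries (adjusted p = 0.143) and by 0.73 with HBB-positive libraries alone at 24 h, which passed (adjusted p = 0.0194).

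CKI was the 1 treatment given in both batches at 48 h. Its effect differed between them for 2 of 7 members (13.8% of all genes), ABCG2 by 0.69 ± 0.14 (adjusted p = 0.00262) and ABCC1 by 0.26 ± 0.08 (adjusted p = 0.034), both higher in batch 2. For ABCG2 the levels with CKI were 16.1 and 13.9 CPM, and those of untreated cells were 6.92 and 3.75, so the larger fold in batch 2 stood on a lower untreated level. For ABCC1 the effect was -0.09 in batch 1 and 0.16 in batch 2. That difference was not called without untreated replicate 2 or CKI replicate 2 of batch 1, among other single libraries. The batches hold different mixtures, so no mixture of batch 1 was compared with a mixture of batch 2.

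The wider machinery of drug handling was described from 4 gene lists in the 3 comparisons of CKI with untreated cells, in which 30.0%, 54.0% and 66.4% of all genes were called. Of 39 other ABC transporters, 25 were tested at 24 h and 9 called (5 higher, 4 lower), and at 48 h 26 were tested, of which 13 were called in batch 1 (6 higher, 7 lower) and 19 in batch 2 (10 higher, 9 lower), which is 36% of those tested, 50% and 73.1%. ABCA1, the cholesterol exporter that loads lipoproteins, gave log2 fold changes of -3.34, -2.79 and -3.16 in the 3 comparisons, from 60.7 ± 5.09 CPM untreated to 5.996 ± 0.405 with CKI at 24 h (SD, n = 3). ABCG1, its partner in cholesterol efflux, gave -2.51, -2.42 and -2.41, and ABCB6, a porphyrin carrier, rose by 1.05, 0.94 and 1.53.

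Of 23 genes of glutathione synthesis and conjugation, which make and attach the peptide that several ABCC proteins export, 19 were tested each time. CKI changed 8 at 24 h (6 higher, 2 lower), 15 at 48 h in batch 1 (9 and 6) and 14 in batch 2 (10 and 4), which is 42.1%, 78.9% and 73.7% of those tested. GCLM, a subunit of the enzyme that begins glutathione synthesis, rose by 1.71, 1.26 and 1.69, going from 73.0 ± 2.18 to 239 ± 26.1 CPM at 24 h (SD, n = 3). GCLC, its partner, rose by 1.47 at 24 h and was also called higher at 48 h in both batches. SULT1A1, a sulfotransferase for phenols, gave -1.62, -1.16 and -1.79, from a level of 1.61 ± 0.172 CPM at 24 h.

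Of 12 regulators of transporter genes, 10 were tested, of which 3 were called at 24 h (2 higher, 1 lower), 8 at 48 h in batch 1 (4 and 4) and 8 in batch 2 (5 and 3), which is 30%, 80% and 80%. PPARA, the nuclear receptor for fatty acids, rose by 1.34, 1.01 and 1.35, HIF1A, the oxygen-regulated factor, gave -0.92, -0.96 and -0.73, and NFE2L2, which encodes NRF2, rose by 0.41, 0.21 and 0.26. Of 17 uptake and exchange carriers, 12, 12 and 10 were tested and 4 (3 higher, 1 lower), 10 (6 and 4) and 10 (6 and 4) were called, which is 33.3%, 83.3% and 100%. SLCO3A1, a carrier of organic anions, rose by 0.77, 0.58 and 0.62, and SLC47A1, which exchanges organic cations for protons, by 0.73, 0.59 and 0.64. SLCO2B1, another organic anion carrier, went from 0.0725 ± 0.0887 CPM to 1.18 ± 0.278 at 24 h, too low in untreated cells for a useful fold. Median log2 fold changes of the 4 lists lay between -0.09 and 0.21 at 24 h, -0.13 and 0.35 at 48 h in batch 1, and 0.06 and 0.26 in batch 2, against 0.02, 0.01 and -0.01 for all genes.

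The genes with patterns most like each member were sought over the 15 log2 fold changes against untreated cells, among the 11044 genes whose mean reached 5 CPM. The 15 points share 3 untreated groups, 5 to each, so the correlations are descriptions with no test. For ABCC4 the nearest were GTF2H3, ZNF502 and TRMT13 (Pearson r of 0.978, 0.973 and 0.958). For ABCG2 they were SNAI1, FBXO2 and BMF (0.945, 0.912 and 0.912), for ABCC5 SMG8, GLA and PTGR1 (0.929, 0.912 and 0.883), and for ABCC10 BTN3A1, DOC2A and SMARCD3 (0.922, 0.870 and 0.865). ABCC2 came nearest to EIF2AK2, LIG3 and NUTM2A-AS1 (0.887, 0.868 and 0.849) and ABCC3 to ACADVL, TMED4 and GJB2 (0.886, 0.875 and 0.854). ABCC1 had the weakest likeness, with KDELR1, BTN3A2 and HMOX2 (0.816, 0.807 and 0.806). Among the members themselves, ABCG2 and ABCC5 were most alike (0.770), and ABCG2 and ABCC4 were most opposed (-0.70).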

How the data were processed

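Strand-specific RNA-seq libraries of MDA-MB-231 cells were used as 18 groups of 3, which the series calls biological replicates. Whether these came from separate cultures was not given in the sources used here, so the p-values measure the spread between these libraries. The deposited values were raw counts per gene in 1 table, which the authors made by aligning trimmed reads (Trim Galore 0.3.7, FastQC 0.11.4) to hg19 with STAR 2.5.3a and counting with featureCounts of Subread 1.5.2, per the submitters' processing notes. The strand setting of the counting was not given in the sources used here. No column was left out.

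The members and gene lists were chosen with earlier results of these data known. Counts were tested with edgeR 4.0.16 (R 4.3.3) by the quasi-likelihood test with TMM scaling, in 1 fit for each of the 24 h set and the 48 h sets of batch 1 and batch 2 (18 libraries each). Genes were kept by a minimum count of 10 and a minimum total of 15, which left 15191, 15513 and 15115 genes. P-values were adjusted by the Benjamini-Hochberg method over all genes of a fit, and a call is an adjusted p under 0.05. Errors are SE of log2 fold changes and SD of levels, and intervals are 95% intervals. Differences between times and batches were tested as interaction terms in joint fits. CPM values were TMM-scaled over all 54 libraries. No pair of libraries of a group agreed within sampling noise. Beside the members, the text names the 3 genes of each list with the largest mean change over the CKI comparisons among those called in 1 direction in all 3, and the 3 genes nearest to each member by correlation. The edgeR fits of single sets were tried on simulated counts, drawn with the spread of these fits. The joint fits, DESeq2 and libraries that stand apart were not simulated. Alternatives were other scalings (size factors by RLE and library sizes alone), no filter, DESeq2 1.42.0, other sets of libraries in the fit, a replicate block, leaving out each library, and, added after seeing the data, only the libraries with HBB reads at 24 h.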

Additional observations from a re-analysis of the deposited data

Results flagged for a closer look

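The effects of treatment on 4 members differed between times or batches by the test of the difference itself. The effect of N-OmtOspc was higher at 48 h than at 24 h by 0.71 ± 0.16 on the log2 scale for ABCC10 (SE, edgeR's quasi-likelihood test, adjusted p = 0.000708), by 0.69 ± 0.20 for ABCC4 (adjusted p = 0.00955) and by 0.69 ± 0.27 for ABCG2 (adjusted p = 0.0477). The effect of CKI at 48 h was higher in batch 2 than in batch 1 by 0.69 ± 0.14 for ABCG2 (adjusted p = 0.00262) and by 0.26 ± 0.08 for ABCC1 (adjusted p = 0.034). Of all genes, 34.2% were called between times for N-OmtOspc and 13.8% between batches for CKI. The ABCG2 difference between times was called in 8 of 20 alternatives, and the ABCC1 difference between batches in 8 of 18.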

How the results depend on the processing

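Of 3997 values of single members recomputed under an alternative, 3757 stayed on their side of the threshold, 138 lost the call and 102 gained it. No called value changed sign, while 124 values called in neither setting did. The number of members called against untreated cells at 24 h was 10 and became 16 with HBB-positive libraries alone and 19 with all 54 libraries in 1 fit. With 54 libraries in 1 fit, calls of mixtures against CKI went from 7 to 16 at 24 h and from 25 to 16 in batch 2, the cause of which was not tested. For mixtures that differ by macrozamin at 48 h, 3 calls became 1 with the groups compared fitted alone. Differences of effect between times went from 3 to 6 without the 3 unnumbered libraries, 5 with HBB-positive libraries alone and 6 with 54 libraries in 1 fit. Untreated cells at 48 against 24 h went from 0 to 1 under each of these and to 2 with the 2 groups alone. The CKI effect between batches went from 2 to 1 with library sizes alone and 0 with 54 libraries in 1 fit. Leaving out each library in turn gave ranges of 9 to 13, 16 to 20 and 26 to 27 calls against untreated cells (24 h, 48 h batch 1, batch 2), 5 to 8, 15 to 19 and 22 to 25 against CKI, 2 to 3 and 1 to 3 for macrozamin at 24 and 48 h, 1 to 4 between times, 0 to 0 for untreated cells between times, 1 to 3 for CKI between batches and 5 to 6 for untreated cells between batches. The low of 1 for macrozamin came without N-OmtOspc replicate 1 and that between times without N-OmtOspc replicate 1 of 24 h. For CKI between batches the low of 1 came without any of untreated replicate 2 or CKI replicate 2 of batch 1, or untreated replicate 1, CKI replicate 1 or CKI replicate 3 of batch 2. With library sizes alone the median gene moved by -0.31 for N-OmtOspc against untreated cells at 24 h. The shares of all genes called under each alternative are not set beside these counts, and nothing particular to the transporters is read from them.

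Replicate numbers did not pair the libraries. Of 45 pairs of groups, 1 had all correlations of same-numbered deviations over 0.1, and the median was 0.00546. With the replicate block, calls were 12, 19 and 26 against untreated cells, 7, 18 and 25 against CKI, 3 and 3 for macrozamin, 3 between times, 0 for untreated cells between times, 1 for CKI between batches and 5 for untreated cells between batches.

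Depth limits ABCB1, with at most 8 counts a library, and ABCC2, with 15 to 116. With 3 libraries a group the spread of each gene is estimated with help from other genes. The 24 h set was the noisiest, with a biological coefficient of variation of 0.175 against 0.0763 and 0.0480 at 48 h. Its widest pair of replicates was N-OmtOspc 2 and 3, with a chi-square over genes of 131 per degree of freedom against sampling noise. In the same group, replicates 1 and 3 gave 84.9 and replicates 1 and 2 gave 11.2. All libraries of that group held HBB reads, so the HBB-positive setting left none of them out.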
